A study of Mus musculus with 108 samples.

Results

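The chromatin states of 50 cell cycle and proliferation genes were read in mouse liver at 3 and 12 months of age. The genes were chosen by name for their textbook roles in the cell cycle, but with earlier results of these data known. They made up 50 of the 26089 genes with a curated RefSeq transcript on mm10. For each gene, the state was read in the 200 bp bin that holds the transcription start site (TSS) of its longest curated transcript, in the 21 bins within TSS +/- 2 kb and in all bins of the gene body. The states had been assigned by ChromHMM, which labels each bin by the combination of histone marks found in it. State 1 (Active TSS) and state 2 (Flanking TSS) are related to the TSS. States 3, 4 and 5 (Active enhancer (1), Active enhancer (2) and Poised enhancer) are related to enhancers. States 1 to 5 differ in how they combine H3K4me3, H3K27ac and H3K4me1, and lack H3K27me3. The probability of each mark in each of these states was not used here. State 6 (Repressed Polycomb) carries only H3K27me3, state 7 (Repeats/cLAD) a weak H3K4me3 and minimal H3K27me3 signal, and state 8 (Quiescent) none of the marks.

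Cells enter the cycle when cyclin D and its kinases phosphorylate the retinoblastoma proteins, which then release E2F transcription factors and allow the genes of DNA replication to be transcribed. Genes of mitosis follow later, through CCAAT boxes and the cell cycle genes homology region (CHR) in their promoters. The DREAM complex represses them through the CHR in resting cells, while MYBL2 and FOXM1 activate them in dividing cells. Adult hepatocytes are mostly resting cells that can re-enter the cycle after injury or loss of tissue, and the trimethylation of H3K4 at a CpG-rich promoter does not require high transcription.

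The groups were inbred C57BL/6 female mice. SD 3m (8 mice, 30 libraries) and SD 12m (8 mice, 29 libraries) were fed standard diet and killed at 3 and 12 months, and CR 12m (9 mice, 29 libraries) was fed 30% fewer calories from the age of 3 months and killed at 12 months. Chromatin came from formalin-fixed, paraffin-embedded liver and was precipitated for H3K4me3, H3K27me3, H3K27ac and H3K4me1. The libraries of a group were merged before the states were assigned, so each group had 1 segmentation. No difference between groups could therefore be compared with the spread between mice, no test was run, and all differences below are differences between 3 sets of labels. SD 6m was not analysed here. Where 3 values or states follow each other below, their order is SD 3m, SD 12m, CR 12m. SD 12m and CR 12m are both set against the same SD 3m labels, and an error in these would enter both comparisons.

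How many reads each merged file holds is unknown. H3K4me3, a mark of the promoters of transcribed genes, came from 7, 8 and 5 libraries. State 1 covered 0.414%, 0.363% and 0.30% of all bins, and state 2 covered 1.13%, 0.425% and 0.361%. The part of depth and of the number of libraries in the results below was not tested. In bulk liver, fewer cells of a type and less of a mark per cell cannot be told apart. The labelled tissue was checked by markers. The TSS bins of the 6 matched hepatocyte markers (Alb, Apoa1, Apob, Ttr, Cps1 and Hnf4a) were in states 1 to 4 in every group. Of these markers, 2, 4 and 2 were in states 1 or 2. Of 16 markers of other liver cells and lymphocytes, 9, 9 and 7 were in states 6, 7 or 8, against 41.8%, 41.7% and 41.1% of all genes. In states 1 or 2 were 1, 0 and 1 of the 16. Clec4f of Kupffer cells and Cd3e of T cells were in state 6 in all 3 groups, whereas Cd68 and Csf1r of macrophages were in state 3 in all of them. The cholangiocyte marker Sox9 was in states 7, 4 and 1, Krt19 in states 8, 8 and 4, and Krt7 in states 8, 6 and 4. The endothelial markers differed from each other, with Pecam1 in states 2, 3 and 3, Stab2 in states 4, 7 and 4 and Kdr in states 7, 5 and 4. Whether the proportions of these cells bear on the cell cycle genes was not tested.

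Promoter sequences were available from RefSeq (GRCm38.p6, the assembly of mm10) for 39 of the 50 genes, as windows of 300 bases from 250 before to 50 after the start. In 37 of them the start lay within 50 bp of the TSS used for the states. The windows were searched on both strands for the CCAAT box (CCAAT), the CHR (TTTGAA or TTCGAA) and an E2F element (TTTCCCGC, TTTCGCGC, TTTGGCGC or TTTGCCGC), and overlapping matches were all counted. A CCAAT box was found in 27 of the 39 promoters (69.2%), against 39.2% of all 19453 promoters. The CHR was found in 17 (43.6%, against 17.7%), and the E2F element in 13 (33.3%, against 2.84%). The elements were divided by phase. Of 15 promoters of G2/M genes, 12 held the CHR and 1 the E2F element. Of 18 promoters of G1/S genes, 3 held the CHR and 10 the E2F element. A match of letters is a description and does not show that a factor binds there.

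The 10 sequences below are those of genes whose states are described in detail. They run 5′ to 3′ on the strand of the gene, and capitals mark matches to the 3 elements. Mki67, Top2a, Ccnb1, Plk1 and Cdk1 are mitotic genes that had no Active or Flanking TSS state at the TSS in CR 12m. Cenpf and Bub1 had no mark or only Polycomb at the TSS at 12 months. Kif11, also a mitotic gene, kept state 1 in all groups. Of the replication genes, Mcm2 did not keep state 1 at the TSS and Mcm5 did.
Mki67 (chr7:135716330-135716629, minus strand): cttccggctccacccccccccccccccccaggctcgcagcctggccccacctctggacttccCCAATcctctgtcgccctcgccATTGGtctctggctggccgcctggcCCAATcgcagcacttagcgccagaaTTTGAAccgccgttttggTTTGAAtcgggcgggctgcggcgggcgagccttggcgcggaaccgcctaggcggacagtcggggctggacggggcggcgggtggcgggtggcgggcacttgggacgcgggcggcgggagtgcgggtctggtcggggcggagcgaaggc
Top2a (chr11:99024140-99024439, minus strand): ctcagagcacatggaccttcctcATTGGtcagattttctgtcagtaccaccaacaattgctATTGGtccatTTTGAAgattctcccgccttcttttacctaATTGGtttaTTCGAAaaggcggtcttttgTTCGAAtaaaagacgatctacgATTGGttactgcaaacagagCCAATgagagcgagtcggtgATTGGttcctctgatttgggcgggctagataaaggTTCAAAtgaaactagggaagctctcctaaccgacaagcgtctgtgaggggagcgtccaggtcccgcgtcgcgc
Ccnb1 (chr13:100786437-100786736, minus strand): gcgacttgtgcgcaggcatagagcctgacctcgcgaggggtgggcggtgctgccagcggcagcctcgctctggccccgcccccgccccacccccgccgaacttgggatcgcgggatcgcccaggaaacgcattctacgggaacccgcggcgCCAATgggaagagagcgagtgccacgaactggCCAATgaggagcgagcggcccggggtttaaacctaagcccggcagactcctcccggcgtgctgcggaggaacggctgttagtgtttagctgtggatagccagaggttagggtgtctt
Plk1 (chr7:122159185-122159484, plus strand): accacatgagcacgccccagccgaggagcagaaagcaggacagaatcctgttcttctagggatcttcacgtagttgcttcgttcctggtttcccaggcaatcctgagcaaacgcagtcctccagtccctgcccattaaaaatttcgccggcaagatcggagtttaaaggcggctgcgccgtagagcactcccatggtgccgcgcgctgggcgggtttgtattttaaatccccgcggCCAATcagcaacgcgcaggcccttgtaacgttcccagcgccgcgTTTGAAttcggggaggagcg
Cdk1 (chr10:69352863-69353162, minus strand): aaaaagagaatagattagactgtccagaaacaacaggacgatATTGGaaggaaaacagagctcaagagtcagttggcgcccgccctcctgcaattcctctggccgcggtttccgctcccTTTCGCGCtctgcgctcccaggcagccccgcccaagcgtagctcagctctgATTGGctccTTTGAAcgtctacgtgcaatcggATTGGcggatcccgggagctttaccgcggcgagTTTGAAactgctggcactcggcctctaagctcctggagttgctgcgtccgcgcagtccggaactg
Cenpf (chr1:189688037-189688336, minus strand): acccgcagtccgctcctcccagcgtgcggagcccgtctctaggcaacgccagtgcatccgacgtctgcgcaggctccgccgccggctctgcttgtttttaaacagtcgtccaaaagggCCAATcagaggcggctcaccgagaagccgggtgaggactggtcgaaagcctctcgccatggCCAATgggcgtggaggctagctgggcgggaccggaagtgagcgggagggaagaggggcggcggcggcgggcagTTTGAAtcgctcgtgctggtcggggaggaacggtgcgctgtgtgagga
Bub1 (chr2:127831810-127832109, minus strand): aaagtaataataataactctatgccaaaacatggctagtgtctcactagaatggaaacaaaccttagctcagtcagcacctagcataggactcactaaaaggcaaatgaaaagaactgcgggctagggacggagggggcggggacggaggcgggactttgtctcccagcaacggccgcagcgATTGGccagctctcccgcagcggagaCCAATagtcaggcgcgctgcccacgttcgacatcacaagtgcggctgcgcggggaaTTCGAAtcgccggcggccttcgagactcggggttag
Kif11 (chr19:37376132-37376431, plus strand): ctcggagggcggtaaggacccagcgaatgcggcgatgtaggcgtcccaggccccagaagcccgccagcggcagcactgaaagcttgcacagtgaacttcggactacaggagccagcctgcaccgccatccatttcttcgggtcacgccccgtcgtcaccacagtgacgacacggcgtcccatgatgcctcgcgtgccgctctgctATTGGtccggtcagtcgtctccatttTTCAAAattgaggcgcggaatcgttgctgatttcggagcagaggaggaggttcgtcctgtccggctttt
Mcm2 (chr6:88898731-88899030, minus strand): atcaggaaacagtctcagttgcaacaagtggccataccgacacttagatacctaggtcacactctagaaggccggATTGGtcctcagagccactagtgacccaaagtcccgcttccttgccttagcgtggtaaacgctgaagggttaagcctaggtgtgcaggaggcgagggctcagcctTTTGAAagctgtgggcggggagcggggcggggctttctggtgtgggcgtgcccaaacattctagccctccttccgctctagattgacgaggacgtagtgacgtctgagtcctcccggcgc
Mcm5 (chr8:75109259-75109558, plus strand): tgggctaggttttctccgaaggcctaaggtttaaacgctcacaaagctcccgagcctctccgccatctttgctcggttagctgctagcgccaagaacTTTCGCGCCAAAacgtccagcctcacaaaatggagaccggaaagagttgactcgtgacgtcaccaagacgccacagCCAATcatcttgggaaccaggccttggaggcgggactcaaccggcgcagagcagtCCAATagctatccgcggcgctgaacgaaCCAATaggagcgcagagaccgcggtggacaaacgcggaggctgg

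The Mki67 window held 3 CCAAT boxes and 2 CHR, and that of Top2a held 6 and 4. Kif11, which stayed in state 1, and Plk1, which did not, both held 1 CCAAT box and 1 CHR. In Mcm5 the 2 E2F matches overlap each other. Ccnb1 held 2 CCAAT boxes and none of the letters searched for the CHR. The CHR was found in 3 of 10 promoters of genes that were in states 1 or 2 in all groups, and in 8 of 17 of genes that were in states 1 or 2 in SD 3m but not in CR 12m. The CCAAT box was found in 6 and 14 of them, and the E2F element in 5 and 5. The sets also differ in their share of G2/M genes, and a link between the elements and the states was not tested. Promoters of the 50 genes were rich in CpG. With an observed over expected CpG ratio of at least 0.6 and a GC content of at least 50% in the 1000 bp around the TSS, 44 of 50 (88%) were CpG-rich, against 42.4% of all genes. Genes with a CpG-rich promoter are therefore given beside all genes in several, but not all, of the comparisons of TSS states.

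In SD 3m, 36 of the 50 genes (72%) had the TSS bin in states 1 or 2, against 40.1% of all genes and 73.0% of the 11053 genes with a CpG-rich promoter. In SD 12m these were 25 (50%), against 34.7% of all genes and 66.1% of CpG-rich genes. In CR 12m they were 17 (34%), against 30.7% and 59.7%. The share of the 50 genes was thus close to that of CpG-rich genes at 3 months and below it at 12 months under both diets, and the CR 12m share was below that of SD 12m. The enhancer states held the TSS bins of 12, 19 and 27 genes, or 24%, 38% and 54%, against 18.2%, 23.65% and 28.2% of all genes. State 6 held 2, 1 and 2 of the TSS bins, fewer in share than the 11.0%, 14.9% and 12.2% of all genes. State 7 held 1 TSS bin, in SD 12m, and state 8 held none in SD 3m and 4 in each group of 12 months. States 6 to 8 together held 4%, 12% and 12%, against 41.8%, 41.7% and 41.1% of all genes.

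**Figure D1:**
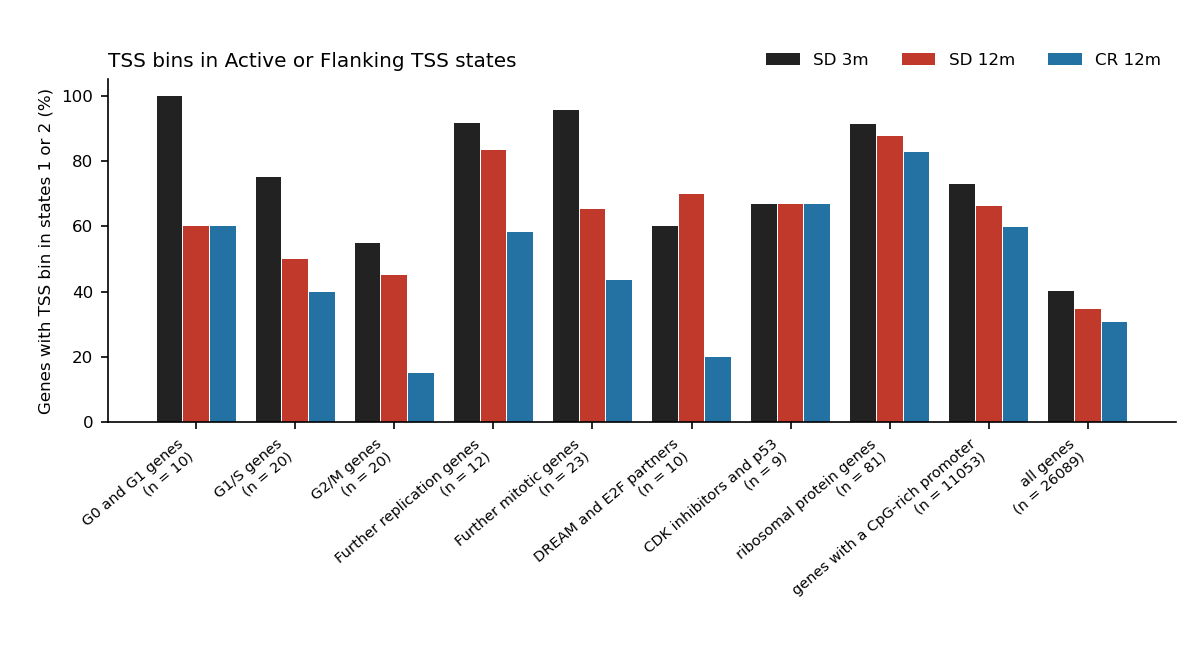
Percent of genes whose TSS bin was in states 1 or 2 (bars, from 0) in SD 3m, SD 12m and CR 12m, for the 50 genes by phase, for other gene lists and for all genes, with the number of genes in each. The G2/M genes had 55%, 45% and 15% in the 3 groups, while the CDK inhibitors and p53 had 66.7% in each and the ribosomal protein genes 91.4%, 87.7% and 82.7%.

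Any change of state at the TSS bin was found for 23 of the 50 genes between SD 3m and SD 12m (all genes, 32.6%), for 28 between SD 3m and CR 12m (all genes, 34.7%) and for 22 between SD 12m and CR 12m (all genes, 26.7%). Of the 36 genes in states 1 or 2 in SD 3m, 12 (33.3%) were outside these states in SD 12m, against 16.5% of all genes that started there. In CR 12m 20 of the 36 (55.6%) were outside, against 25.9%. Among CpG-rich genes these shares were 11.7% and 20.3%. Nearly all of these genes had enhancer states at 12 months, 11 of 12 in SD 12m and 19 of 20 in CR 12m. The exception was Plk1 under both diets. A single gene, Birc5, was in state 5 in SD 3m and in state 1 in both groups of 12 months, so that 1 of 14 genes entered states 1 or 2 in either comparison, against 2.07% of all genes in SD 12m and 1.7% in CR 12m.

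Between the diets at 12 months, 11 of the 25 genes in states 1 or 2 in SD 12m (44%) were outside these states in CR 12m, against 17.1% of all genes and 14.2% of CpG-rich genes. These were Aurka, Aurkb, Bub1b, Ccnd3, Cdk2, Cenpa, E2f3, Mcm3, Mki67, Rrm2 and Top2a, and all had an enhancer state at the TSS in CR 12m. In the other direction, Ccnd1, Cdk4 and Rb1 were outside states 1 and 2 in SD 12m and in state 1 in CR 12m, 3 of 25 genes (all genes, 2.93%). Within TSS +/- 2 kb, however, these 3 genes had fewer bins of states 1 or 2 in CR 12m (11, 7 and 8) than in SD 12m (14, 8 and 11). The 9 genes in states 1 or 2 in SD 3m and in neither group of 12 months were Ccnb1, Ccnd2, Ccne2, E2f1, E2f2, Mad2l1, Mcm2, Mcm6 and Plk1. The 13 genes in states 1 or 2 in all groups were Cdc25a, Cdk6, Cdt1, Kif11, Kif20a, Mcm4, Mcm5, Mcm7, Myc, Pcna, Rbl1, Rbl2 and Rrm1. The 13 genes in neither state in any group were Bub1, Ccna2, Ccnb2, Ccne1, Cdc20, Cdc25c, Cdc6, Cdk1, Cenpf, E2f7, E2f8, Foxm1 and Mybl2.

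A TSS label rests on a single bin. When states 1 or 2 were also accepted in either of the 2 neighbouring bins, 41, 36 and 25 of the 50 genes had them, or 82%, 72% and 50%. Among CpG-rich genes these shares were 76.4%, 73.0% and 69.5%. The shortfall in SD 12m was thus smaller by this reading, 72% against 73.0% of CpG-rich genes, while that in CR 12m stood at 50% against 69.5%. Shares of genes outside states 1 and 2 also varied with the starting width. Of the genes with 15 to 21 bins of states 1 or 2 within TSS +/- 2 kb in SD 3m, 4 of 14 cell cycle genes were outside these states in SD 12m and 4 in CR 12m, against 7.67% and 12.6% of all genes with this width. Of those with 8 to 14 bins, 5 and 11 of 16 were outside, against 20.6% and 33.1%. Of those with 1 to 7 bins, 3 and 5 of 6 were outside, against 39.6% and 56.9%. In each class of width the share of the cell cycle genes was the higher, with few genes in each class.

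Bins of states 1 or 2 within TSS +/- 2 kb were fewer at 12 months for most of the 50 genes. The mean per gene was 10.2, 5.48 and 3.68 of 21 bins, against 6.07, 3.93 and 3.45 for all genes and 11.1, 7.37 and 6.55 for CpG-rich genes. Against SD 3m, 43 genes had fewer such bins in SD 12m (all genes, 42.1%; CpG-rich genes, 72.6%) and 45 in CR 12m (all genes, 44.1%; CpG-rich genes, 75.8%). Against SD 12m, 32 had fewer in CR 12m (all genes, 26.2%). The 2 shares are not alike, as 56% of all genes but 22% of the 50 genes had no such bin in SD 12m and could not have fewer. A share of CpG-rich genes was not computed for this comparison. No bin of either state within TSS +/- 2 kb was found for 4, 11 and 20 genes, or 8%, 22% and 40%, against 52.2%, 56% and 58.3% of all genes and 19.0%, 21.8% and 24.6% of CpG-rich genes. In SD 12m the share was thus close to that of CpG-rich genes. Of the 512 bins that were in states 1 or 2 in SD 3m, 51.8% still carried them in SD 12m, as did 34.8% in CR 12m, against 62.5% and 55.1% of 158280 such bins around all genes. The rest were almost entirely in the enhancer states, 47.7% of the 512 in SD 12m and 64.6% in CR 12m.

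**Figure D2:**
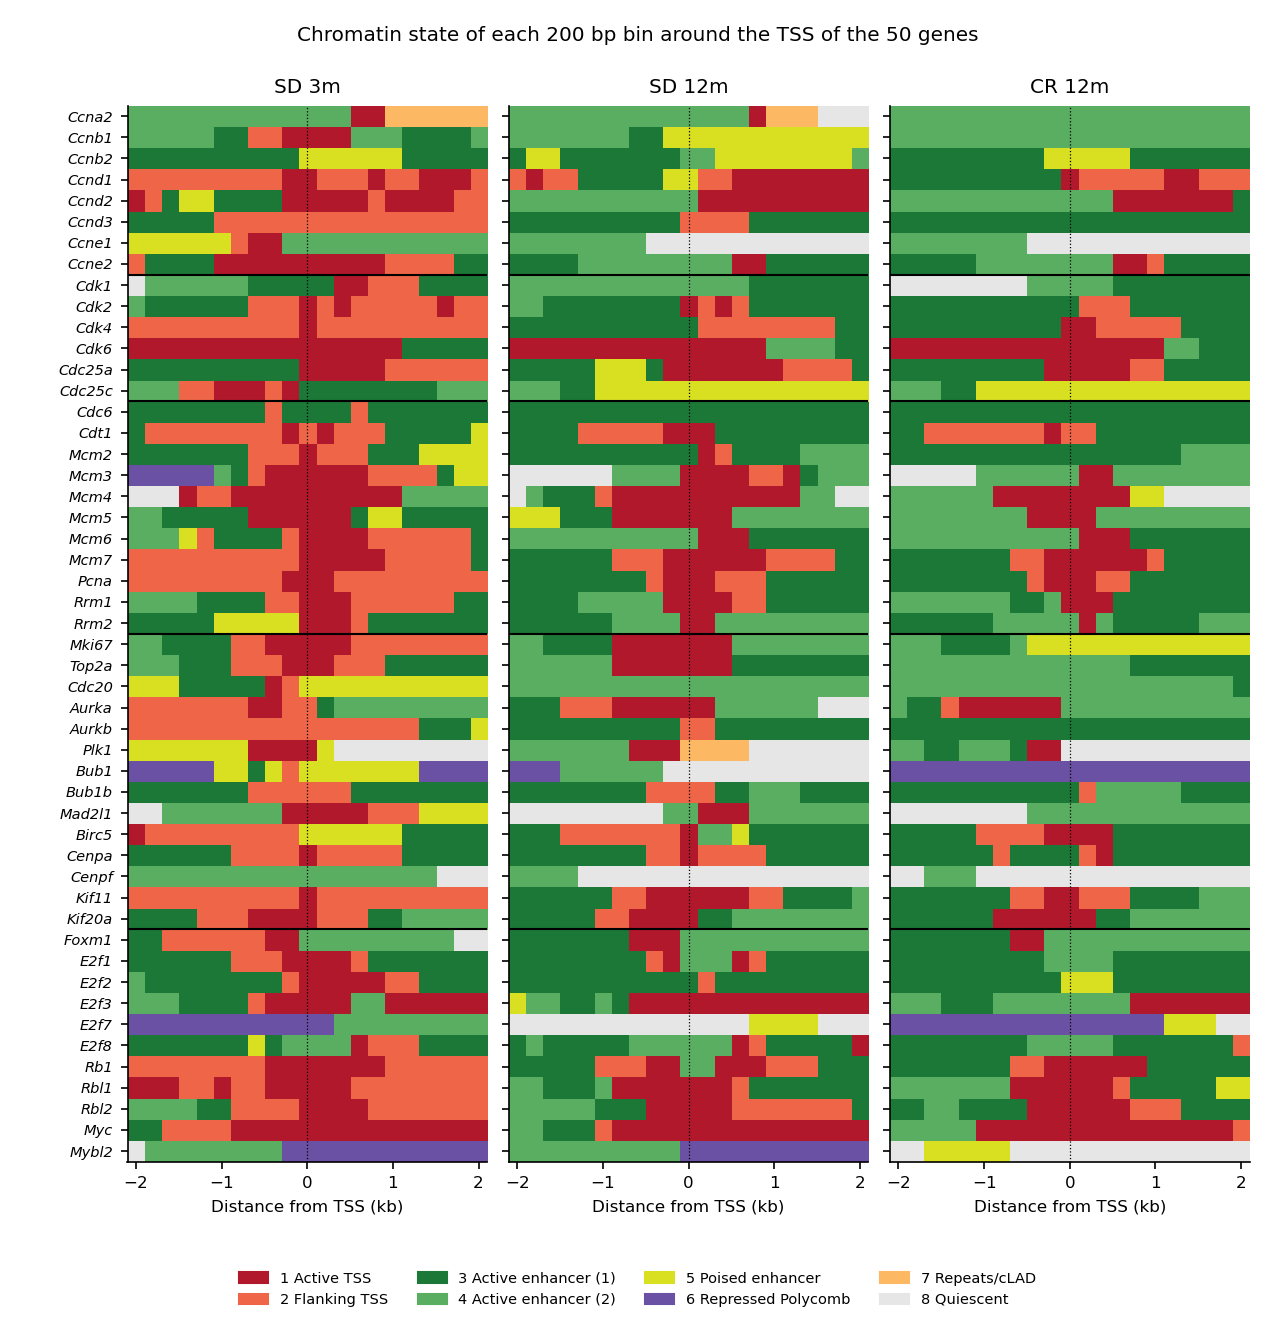
State of each 200 bp bin (colour) by distance from the TSS in kb, in gene direction, for the 50 genes (rows, grouped by role from cyclins at the top to transcription regulators at the bottom) in SD 3m, SD 12m and CR 12m. Red bins (states 1 and 2) made up 10.2, 5.48 and 3.68 of 21 bins per gene in the 3 groups, and green bins (states 3 and 4) took most of their place.

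By phase, the genes of G0 and G1 had the widest TSS states and those of G2/M the narrowest. All 10 genes of G0 and G1 were in states 1 or 2 at the TSS in SD 3m, with means of 16.9, 10.8 and 8.40 bins. In SD 12m 6 of the 10 were, and in CR 12m also 6, but only 3 genes were under both diets. Between SD 12m and CR 12m, 6 of the 10 TSS bins changed state (all genes, 26.7%), with 3 genes leaving states 1 or 2 and 3 entering. Of the 20 genes of G1/S, 15, 10 and 8 were in these states, with means of 9.55, 4.80 and 3.20 bins. Of the 20 genes of G2/M, 11, 9 and 3 were, with means of 7.60, 3.50 and 1.80 bins. The number of G2/M genes in states 1 or 2 thus differed by 2 between SD 3m and SD 12m and by 6 between SD 12m and CR 12m, although the TSS bins of 11 and 10 of the 20 changed state in these comparisons and the median difference in bins was -2.5 and -1. Of the bins in states 1 or 2 in SD 3m, G0 and G1 genes had 62.7% in these states in SD 12m and 49.1% in CR 12m, G1/S genes 47.6% and 32.5%, and G2/M genes 44.7% and 21.7%. At 1000 bp downstream of the TSS, 6, 1 and 0 of 20 G2/M genes were in states 1 or 2 (all genes, 37.4%, 26.5% and 23.4%), and at 1000 bp upstream 7, 3 and 2 were (all genes, 22.2%, 10.6% and 8.87%).

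**Figure D3:**
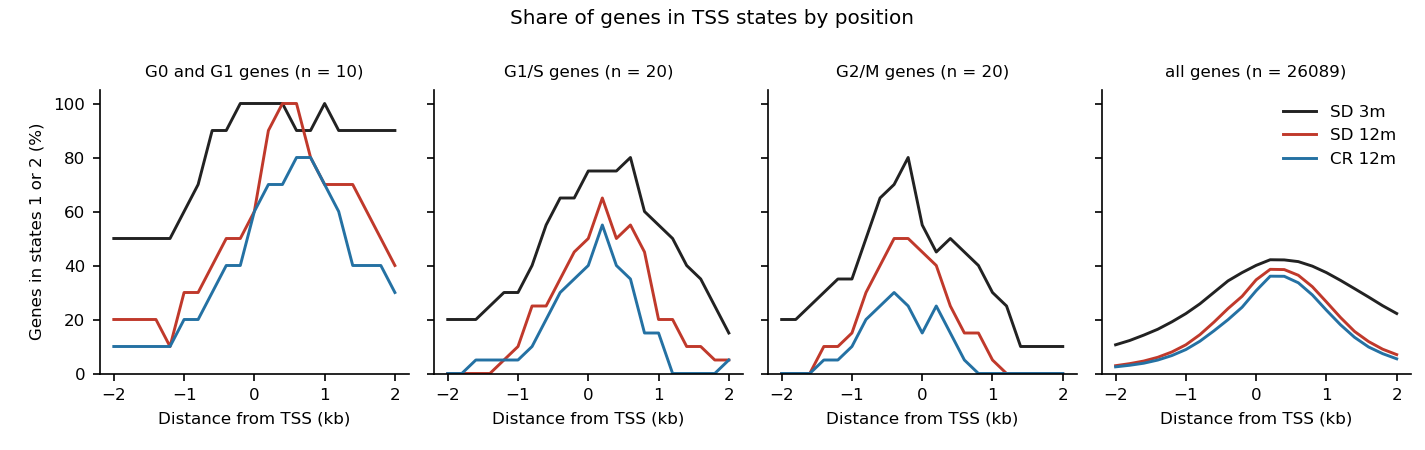
Percent of genes in states 1 or 2 (y axis) by distance from the TSS in kb (x axis, gene direction), in SD 3m, SD 12m and CR 12m, for the 10 G0 and G1, 20 G1/S and 20 G2/M genes and for all 26089 genes. Both curves of 12 months lie at or below the SD 3m curve over most positions. The CR 12m curve of the G2/M genes is at 15% at the TSS, against 45% in SD 12m and 55% in SD 3m. At 200 bp upstream it is at 25%, against 50% in SD 12m and 80% in SD 3m.

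Cyclins bind and activate the cyclin-dependent kinases, and they showed the lowest share at 12 months among the roles. Of 8 cyclin genes, 5, 1 and 1 were in states 1 or 2. Ccnd1, the D-type cyclin that hepatocytes induce on entering the cycle, was in states 1, 5 and 1, with 21, 14 and 11 bins of states 1 or 2 around the TSS. Its TSS bin thus differed between the diets, while the extent of the TSS states was lower in both groups of 12 months. Ccnd2, another D-type cyclin, was in states 1, 4 and 4 at the TSS with 14, 10 and 7 bins, and the stretch of state 1 lay downstream of the TSS bin at 12 months. Ccnd3, the third D-type cyclin, was in states 2, 2 and 3 with 16, 4 and 0 bins. In CR 12m its TSS lay in a stretch of enhancer states of 155600 bp.

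Ccne2, an E-type cyclin of S phase entry, was in states 1, 4 and 4 with 15, 2 and 3 bins. Ccne1, its close relative, was in state 4 in SD 3m and in state 8 in SD 12m and CR 12m, with 3, 0 and 0 bins. Ccnb1, the main mitotic cyclin, was in states 1, 5 and 4 with 6, 0 and 0 bins, and all of its gene body was in state 4 in CR 12m. The other mitotic cyclins had few or no TSS bins in any group. Ccna2, cyclin A of S and G2 phases, was in state 4 throughout with 2, 1 and 0 bins, and Ccnb2 was in states 5, 4 and 5 with no bin of states 1 or 2 in any group.

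Of 6 genes of cyclin-dependent kinases and the phosphatases that activate them, 4, 3 and 3 were in states 1 or 2. Cdk6, a partner of D-type cyclins, and Cdc25a, a phosphatase of S phase entry, were in state 1 in all groups. Cdk6 had 16, 15 and 16 bins, the only kinase gene with as many bins in CR 12m as in SD 3m, but its TSS lies 334 bp from that of Gm36470 on the other strand. Cdk4, the partner of cyclin D, was in states 1, 3 and 1 with 21, 8 and 7 bins. The unbroken stretch of states 1 and 2 over it was 11400 bp long in SD 3m and 1400 bp in CR 12m. Cdk2, the partner of cyclins E and A, was in states 1, 1 and 3 with 14, 4 and 3 bins. Cdk1, the kinase of mitotic entry, was in states 3, 4 and 4 with 5, 0 and 0 bins, and in SD 12m its TSS lay in 120400 bp of unbroken enhancer states. Cdc25c, a phosphatase that activates Cdk1, was in states 3, 5 and 5 with 7, 0 and 0 bins.

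Genes of DNA replication had the highest share in states 1 or 2 in every group among the roles, 10, 8 and 6 of 11. Pcna, the sliding clamp of the DNA polymerases, was in state 1 in all groups with 21, 7 and 6 bins, and its stretch of TSS states measured 10200 bp in SD 3m, 1400 bp in SD 12m and 1200 bp in CR 12m. The Mcm genes encode the subunits of the replicative helicase and did not share a pattern. Mcm4, Mcm5 and Mcm7 were in state 1 in all groups, with 13, 12 and 8 bins for Mcm4, 6, 7 and 4 for Mcm5 and 20, 13 and 9 for Mcm7. Mcm3 was in states 1, 1 and 4 with 11, 7 and 2 bins. Mcm2 was in states 1, 3 and 3 with 7, 2 and 0 bins, and Mcm6 in states 1, 4 and 4 with 12, 3 and 3. Both Mcm4 and Mcm7 share a start region with a gene on the other strand, Prkdc at 466 bp and Ap4m1 at 138 bp.

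Among the loading factors of the helicase, Cdt1 was in states 2, 1 and 2 with 14, 8 and 10 bins, the largest excess of CR 12m over SD 12m among the 50 genes, at 2 bins. Cdc6 was in state 3 in all groups with 2, 0 and 0 bins, within about as long a stretch of enhancer states in SD 12m (71800 bp) as in CR 12m (71400 bp). The subunits of ribonucleotide reductase, which makes deoxynucleotides, differed. Rrm1 was in state 1 in all groups with 11, 6 and 3 bins, and Rrm2, the subunit that limits its activity in S phase, was in states 1, 1 and 4 with 4, 2 and 1 bins.

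Genes of mitosis were in states 1 or 2 at the TSS in 10, 9 and 3 of 14 (all genes, 40.1%, 34.7% and 30.7%). By this single bin, their difference between the diets was the largest among the roles. By extent, their means were 8.86, 4.71 and 2.43 bins of states 1 or 2 within TSS +/- 2 kb. Their median difference between the diets was -2 bins, the same as for the genes of DNA replication. Mki67, which encodes the proliferation marker Ki-67, was in states 1, 1 and 5 with 15, 7 and 0 bins. Top2a, the topoisomerase that untangles chromosomes, was in states 1, 1 and 4 with 9, 7 and 0 bins. Together with E2f3, they had the largest difference between the diets, with 7 bins fewer under caloric restriction. The TSS of Top2a lay in 77600 bp of enhancer states in CR 12m. The kinase gene Aurkb was in states 2, 2 and 3 with 17, 2 and 0 bins, the largest differences of all 50 genes from SD 3m under both diets. Its stretch of TSS states was 11200 bp long at 3 months and 400 bp long in SD 12m. Aurka, which acts at the spindle poles, was in states 2, 1 and 4 with 11, 9 and 7 bins, and its TSS lies 433 bp from that of Cstf1.

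Genes of the spindle checkpoint and centromere did not all follow one order. Bub1 had 1, 0 and 0 bins of states 1 or 2 and Cenpf had none in any group. Bub1b was in states 2, 2 and 3 with 6, 4 and 1 bins, Mad2l1 in states 1, 4 and 4 with 8, 3 and 0, and Cenpa, the histone H3 variant of centromeres, in states 1, 1 and 3 with 10, 7 and 3. Cdc20, the activator of the anaphase-promoting complex, was in states 5, 4 and 4 with 2, 0 and 0 bins. The motor gene Kif11 was in state 1 in all groups with 21, 10 and 7 bins, and its stretch of TSS states measured 14000, 2000 and 1400 bp. Kif20a, a motor of cytokinesis, was in state 1 in all groups with 10, 6 and 6 bins, 239 bp from the TSS of Brd8. Birc5 (survivin) was in states 5, 1 and 1 with 10, 8 and 8 bins, so that its TSS bin was in state 1 at 12 months although the TSS states around it were no wider than in SD 3m.

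**Figure D4:**
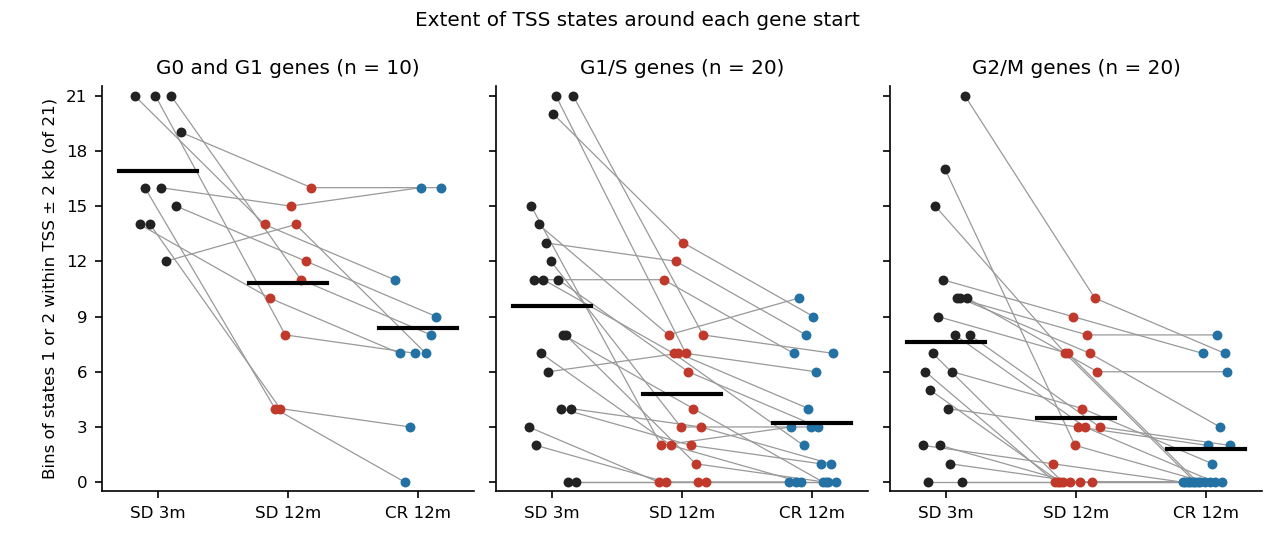
Number of bins of states 1 or 2 within TSS +/- 2 kb, of 21, for each gene (points, joined by grey lines) in SD 3m, SD 12m and CR 12m, by phase, with the mean of each group as a black bar. The means were 16.9, 10.8 and 8.40 for G0 and G1 genes, 9.55, 4.80 and 3.20 for G1/S genes, and 7.60, 3.50 and 1.80 for G2/M genes, of which 12 of 20 had no such bin in CR 12m.

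Transcription regulators were in states 1 or 2 in 7, 4 and 4 of 11. Among them, Rbl1 and Rbl2, the retinoblastoma-like proteins of the DREAM complex, were in state 1 in all groups with 21, 8 and 7 bins and with 15, 12 and 9 bins. Rb1 was in states 1, 4 and 1 with 21, 11 and 8 bins, and in SD 12m its TSS bin lay in a gap of 400 bp between stretches of TSS states. Myc, which drives growth and entry into the cycle, was in state 1 in all groups with 19, 16 and 16 bins and the same count under both diets.

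The E2F genes did not share a pattern. E2f1 and E2f2, activators of S phase genes, were in states 1, 4 and 4 and in states 1, 3 and 5, with 8, 4 and 0 and with 8, 1 and 0 bins. In CR 12m the TSS of E2f1 lay in 165000 bp of enhancer states, the longest such stretch over a TSS of the 50 genes. E2f3, the third activator, was in states 1, 1 and 4 with 12, 14 and 7 bins. The atypical repressors E2f7 and E2f8 and the activators of mitotic genes had no TSS state at the TSS bin in any group. E2f8 was in state 4 with 4, 3 and 1 bins and Foxm1 in state 4 with 8, 3 and 2, the latter only 83 bp from the TSS of Rhno1.

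Of the 50 genes, 6 had the TSS bin in state 6, 7 or 8 in some group. E2f7 (chromosome 10, 110745439 to 110787384, plus strand) was in states 6, 8 and 6, with 12, 0 and 16 of 21 bins in state 6 and 17 bins in state 8 in SD 12m. Mybl2 (chromosome 2, 163054635 to 163084687, plus strand) was in states 6, 6 and 8, with 12, 11 and 0 bins in state 6 and 16 bins in state 8 in CR 12m. The 2 genes therefore had the Polycomb label in opposite groups at 12 months. Bub1, the checkpoint kinase (chromosome 2, 127800200 to 127831859, minus strand), was in states 5, 8 and 6, with 9, 3 and 21 bins in state 6, so that all bins around its TSS in CR 12m were in a stretch of state 6 of 48400 bp.

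Cenpf, a protein of the outer kinetochore (chromosome 1, 189640606 to 189688086, minus strand), was in states 4, 8 and 8, with 3, 17 and 18 bins in state 8 and no bin of states 1 or 2 in any group. Ccne1 (chromosome 7, 38097984 to 38107490, minus strand) had 0, 13 and 13 bins in state 8. Plk1, the kinase of mitotic progression (chromosome 7, 122159435 to 122169884, plus strand), was in states 1, 7 and 8, and had a stretch of states 1 and 2 of 600 bp in SD 12m and 400 bp in CR 12m within TSS +/- 2 kb but not on the TSS bin. Its count of such bins, 4, 3 and 2, differed less than its TSS label. The state 8 labels at Cenpf and Ccne1 were alike under both diets, and those at E2f7, Mybl2 and Bub1 were not.

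In the gene bodies, the share of quiescent bins depended on how the genes were weighed. Of the 6782 gene body bins of the 50 genes, 30.3%, 31.8% and 31.0% were in state 8, against 52.6%, 44.9% and 50.4% for all genes. As a median per gene the share was 19.5%, 23.9% and 15.2%, and from SD 3m to CR 12m the pooled share was lower for G0 and G1 genes and higher for G2/M genes. The enhancer states held 58.5%, 60.8% and 62.8% (all genes, 34.7%, 35.5% and 36.5%), and states 1 or 2 held 6.93%, 3.30% and 2.24% (all genes, 2.91%, 1.64% and 1.42%). State 6 held 3.94%, 1.33% and 1.92% of the bins of these genes, while it held 8.32%, 12.7% and 9.55% of those of all genes. The lower share of state 6 in SD 12m came from few genes. Bub1 had 93.8%, 31.2% and 59.4% of its body in state 6, Ccnd2 61.7%, 12.5% and 22.7%, and Mybl2 23.8%, 15.9% and 0%. E2f7 had 0.952%, 0% and 2.86%, and none of the other 46 genes had a bin of state 6 in its body.

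State 7 held 0.339%, 2.76% and 2.05% of the bins of the 50 genes (all genes, 1.43%, 5.32% and 2.17%). At 12 months most of these bins were in E2f7, whose body was 90.5%, 15.7% and 33.8% state 8 and 1.91%, 82.4% and 61.9% state 7. The other genes with state 7 were Kif20a with 27.3%, 15.9% and 20.5%, Ccna2 with 16.7%, 7.14% and 0%, and Plk1 with 7.55% in SD 12m. State 8 filled all of the bodies of Cenpf and Ccne1 in both groups of 12 months, from 72.7% and 59.2% in SD 3m. It also filled those of Mybl2 and Plk1 in CR 12m. Rbl1 had 45.9%, 36.1% and 88.1% of its body in state 8, although its TSS bin was in state 1 in all groups.

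**Figure D5:**
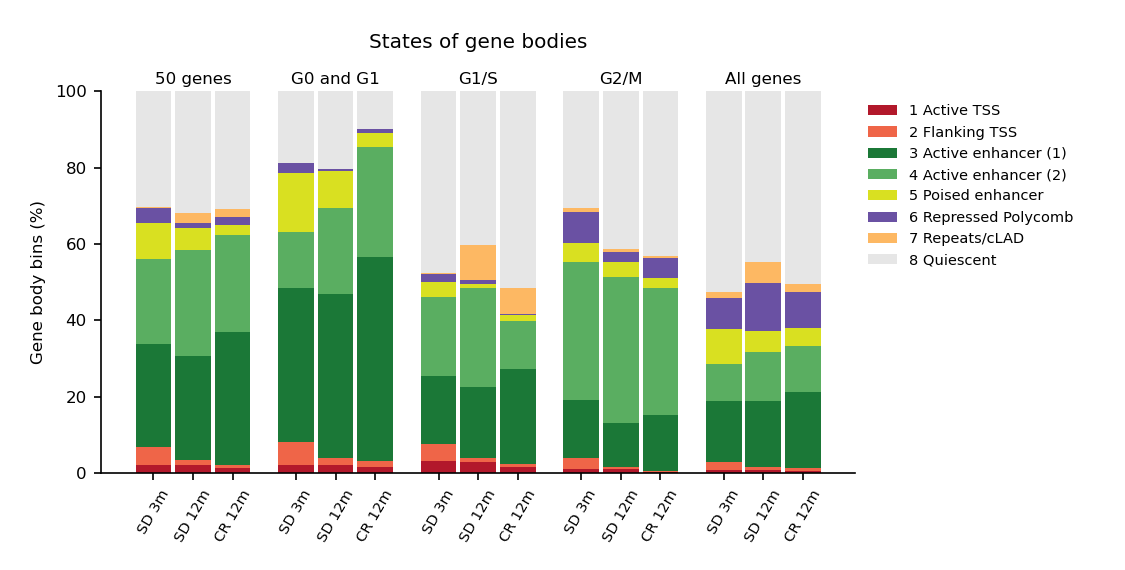
Percent of gene body bins in each state (stacked bars, from 0 to 100%) in SD 3m, SD 12m and CR 12m for the 50 genes, for the same genes by phase and for all genes. State 8 made up 30.3%, 31.8% and 31.0% for the 50 genes and 52.6%, 44.9% and 50.4% for all genes, and the state 7 segment of the G1/S genes in SD 12m (9.0%) is mostly that of E2f7.

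By phase, G0 and G1 genes had most of their bodies in enhancer states, 70.3%, 75.1% and 85.9% in SD 3m, SD 12m and CR 12m, and their share of state 8 was 18.9%, 20.4% and 10.02%. G2/M genes had 56.2%, 53.7% and 50.5% in enhancer states and 30.6%, 41.3% and 43.3% in state 8. These shares pool the bins of all genes of a phase, and long genes weigh most in them. From SD 12m to CR 12m the enhancer share was lower in 4 of the 20 G2/M genes, equal in 9 and higher in 7, among them Ccnb1 with 70% and 100%. Bub1b, with 89.9% and 61.3% of 217 bins, and Kif11, with 78.2% and 63.3% of 229, held nearly all the bins by which the 4 genes were lower. Of the 10 G0 and G1 genes, 8 had a higher enhancer share in CR 12m than under standard diet, and Cdk6, with 71.0% and 94.5% of 937 bins, weighed most.

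Other lists of the same pathway were counted in the same way. The TSS bin was in states 1 or 2 for 40.1%, 34.7% and 30.7% of all genes, and for 73.0%, 66.1% and 59.7% of CpG-rich genes. Of 23 further mitotic genes, 22, 15 and 10 had the TSS bin in states 1 or 2 in SD 3m, SD 12m and CR 12m, with means of 10.7, 4.65 and 3.30 bins around the TSS. Ttk, a spindle checkpoint kinase, was in states 1, 7 and 8, Nuf2, a kinetochore protein, in states 1, 8 and 4, and Hmmr in states 5, 4 and 8. The other 20 were in states 1 to 4 in every group. Of 12 further replication genes, 11, 10 and 7 were in states 1 or 2, and none was in states 6, 7 or 8. Of 10 DREAM and E2F partners, 6, 7 and 2 were, with E2f6 in state 6 in SD 3m and E2f5 in state 6 in CR 12m.

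Of 9 CDK inhibitors and p53 genes, which restrain the cycle, the same number, 6, was in states 1 or 2 in each group. No TSS bin of the list differed in state between the diets, against 26.7% of all genes. Of all genes in states 1 or 2 in SD 12m, 17.1% were outside them in CR 12m. With only 9 genes, few differences would be found at these shares. Their mean bins around the TSS were 10.7, 7.89 and 7.44, and 5 of the 9 had fewer bins than in SD 3m under each diet. Fewer bins were found for 42.1% of all genes in SD 12m and 44.1% in CR 12m, and for 72.6% and 75.8% of CpG-rich genes. Cdkn2a, a locus known for its part in senescence, was in states 7, 6 and 6, and Cdkn1c in states 8, 4 and 4. Of 81 ribosomal protein genes, which are used by every cell, 74, 71 and 67 were in states 1 or 2, with means of 14.1, 9.52 and 9.28 bins. Thus 5.41% of the ribosomal protein genes that started in states 1 or 2 were outside them under standard diet at 12 months and 10.8% under caloric restriction, against 33.3% and 55.6% of the 36 cell cycle genes. Ribosomal protein genes also started with wider TSS states, a mean of 14.1 bins against 10.2.

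The TSS of 7 genes (Cdk6, Mcm4, Mcm7, Aurka, Kif20a, Foxm1 and E2f8) lay within 1 kb of that of another gene, so that the states around them belong to both. Of these, 5, 5 and 4 were in states 1 or 2 in SD 3m, SD 12m and CR 12m. Of the other 43 genes, 31, 20 and 13 were.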

How the data were processed

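ChIP-seq for 4 histone marks was done on liver of 31 mice (108 libraries). The authors aligned reads to mm10 with BWA 0.6.2-r126, filtered them with SAMtools 0.1.18, merged the libraries of each group and trained a ChromHMM model with 8 states. The deposited value is a state label per 200 bp bin, not a signal, of which all 13168874 bins per group were used without a filter. Replicate libraries cannot be separated, and read depth is unknown.

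Each gene was placed by the longest of its curated RefSeq transcripts (GRCm38.p6). Counts of members stand beside counts over all genes, computed in Python 3.11.15 with numpy 2.4.6 and pandas 2.3.3 and tested on planted states. No test was run, as each group had 1 segmentation. Genes were named by a written rule (9 index genes, every class change at the TSS, Polycomb or quiescent labels, and extremes of width and gene body). The members and lists were chosen with earlier results of these data known. Alternatives were other transcripts, neighbouring bins, windows, classes and backgrounds.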

Additional observations from a re-analysis of the deposited data

Results flagged for a closer look

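E2f3 and Mcm5 differed from SD 3m in opposite directions under the 2 diets. The number of bins of states 1 or 2 within TSS +/- 2 kb of E2f3 was 12 in SD 3m, 14 in SD 12m (a difference of 2) and 7 in CR 12m (a difference of -5). For Mcm5 it was 6 in SD 3m, 7 in SD 12m (a difference of 1) and 4 in CR 12m (a difference of -2). With 1 segmentation per group, the difference between the diets was not tested.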

How the results depend on the processing

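No paired analysis was possible because each group has 1 segmentation of merged libraries, and for the same reason no library could be left out. Of 69 values under an alternative, 46 stayed within 1.5 times the count or within the 95% Wilson limits of the value, and the most upstream transcript moved none of them. The Wilson limits took every bin as independent, although adjacent bins of a gene often share a state. They are therefore too narrow and serve only as a rule for flagging a value. With the most TSS-like of the TSS bin and its neighbours, 15 genes changed state between SD 3m and SD 12m. In the order SD 3m, SD 12m, CR 12m, mean bins of states 1 or 2 were 6.94, 4.42 and 3.04 within 1 kb and 14.7, 6.42 and 4.38 within 5 kb, windows of other sizes by construction, and 3.14 in CR 12m without genes that have another TSS within 1 kb. In gene body bins more than 2 kb from the TSS, states 1 or 2 held 2.95%, 0.786% and 0.562%, the enhancer states 60.04% in SD 3m, and state 8 held 32.7%, 33.7% and 32.9%. As medians per gene, states 1 or 2 held 2.84% under standard diet and 1.31% under caloric restriction at 12 months, the enhancer states 49.1%, 63.1% and 68.1%, and state 8 held 19.5%, 23.9% and 15.2%. The order of the groups for state 8 thus depends on pooling, with CR 12m lowest as a median. The cause was not tested. The classes of starting width, and leaving out 3 genes whose transcripts start more than 1 kb apart (33, 23 and 17 genes in states 1 or 2), were chosen after seeing the data. Unknown depth limits any reading of a missing mark.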
